A study of Homo sapiens with 2 samples.

Results

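The probes described here are 60-base oligonucleotides of the Agilent catalogue that were designed against long noncoding RNAs and printed as a single spot on each array. They were taken as the probes that are not controls, whose names begin with A_19_P, A_21_P or A_22_P, and that occupied exactly 1 spot on both arrays. This rule gave 8499 of the 138405 probes on the array, of which 207 began with A_19_P, 4917 with A_21_P and 3375 with A_22_P. No measured value entered the rule. The probes used for comparison were the 26050 catalogue probes printed once that began with A_23_P, A_24_P, A_32_P or A_33_P, and they are called the other catalogue probes below.

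HepG2, an established human liver tumour cell line, was transfected either with a sequence-scrambled siRNA, the negative control (NC), or with a pool of 3 siRNAs (siFOXA1) that target FOXA1, a forkhead pioneer transcription factor of the liver. RNA was extracted 48 h later. Each condition was hybridised to 1 array in 1 colour, and both arrays lay on 1 slide. With a single array for each, no difference could be checked against replicates, and p-values are not given. The deposited columns used here give a probe its own name in place of a gene name, so the identity of the cell line could not be set against marker genes, and the level of FOXA1 is not analysed here.

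Long noncoding RNAs are transcripts that do not encode a protein. Many are spliced and polyadenylated like messenger RNAs, and many start close to the promoter of a coding gene and run away from it on the opposite strand. They tend to be less abundant and more restricted to particular cell types than messenger RNAs, and some act on the chromatin or the transcription of neighbouring genes.

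Names could be given where the whole 60 bases of a probe lay within the 300-base window around the start of a gene, from 250 bases before it to 50 bases after it, in the RefSeq promoter table of build GRCh38.p14. This was so for 90 of the 8499 probes, and 1 of them, A_21_P0005540, lay in windows at 2 places. Such a probe may lie wholly before the annotated start, and then it is not part of the annotated transcript. A match to a window does not exclude a further match elsewhere, since no genome was searched. The sequences that follow were read from the scanner output. The first set holds the brightest probe placed on the strand of a coding gene and the brightest placed on the strand opposite to one. A_22_P00007897 lay at chr14:102139915-102139974 on the minus strand, before the start of HSP90AA1 and in its direction. HSP90AA1 encodes a cytosolic HSP90 chaperone. A_22_P00002540 lay at chr17:82458417-82458476 on the minus strand, against the direction of NARF.
A_22_P00007897: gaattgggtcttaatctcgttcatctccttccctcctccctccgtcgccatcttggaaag
A_22_P00002540: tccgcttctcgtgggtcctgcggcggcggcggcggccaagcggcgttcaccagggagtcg

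The second set holds placed probes whose signals fell in siFOXA1. A_21_P0000509 lay at chr19:49031677-49031736 on the minus strand, opposite to CGB2, and A_21_P0000491 lay at chr19:49037065-49037124 on the plus strand, opposite to CGB1. Both genes belong to the cluster that encodes the beta subunit of chorionic gonadotropin, whose copies are nearly alike. A probe there may match several places. Both probes lay wholly before the annotated start, on the other strand, and so are not part of the annotated transcript of either gene. A_19_P00322687 lay at chr4:52751563-52751622 on the minus strand, in the direction of ERVMER34-1, an envelope gene of an endogenous retrovirus.
A_21_P0000509: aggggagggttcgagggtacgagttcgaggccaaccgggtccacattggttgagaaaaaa
A_21_P0000491: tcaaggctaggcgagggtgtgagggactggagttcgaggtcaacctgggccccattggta
A_19_P00322687: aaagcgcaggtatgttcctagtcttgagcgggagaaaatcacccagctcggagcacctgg

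The third set holds probes in, at or before RNAs or genes with a name known from other work. A_22_P00010857 lay at chr17:27293910-27293969 on the minus strand, opposite to WSB1, and its 60 bases all lay inside the hairpin of MIR4522. A_21_P0000349 lay wholly inside the hairpin of MIR1843 at chr1:175968410-175968469 on the minus strand. In these 2 sequences the capitals mark the mature miRNA in RefSeq's table. A_21_P0012700 lay at chr4:186501212-186501271 on the minus strand, wholly before the start of F11-AS1 and in its direction. F11-AS1 is an antisense transcript of the coagulation factor XI gene. A_19_P00316050 lay at chr7:130913436-130913495 on the plus strand, across the start of LINC00513, which it follows in direction, and before the start of LINC-PINT, which runs on the opposite strand.
A_22_P00010857: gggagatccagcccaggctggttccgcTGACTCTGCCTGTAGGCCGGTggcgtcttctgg
A_21_P0000349: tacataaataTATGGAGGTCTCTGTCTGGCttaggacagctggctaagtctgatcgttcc
A_21_P0012700: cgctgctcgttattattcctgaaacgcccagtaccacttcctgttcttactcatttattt
A_19_P00316050: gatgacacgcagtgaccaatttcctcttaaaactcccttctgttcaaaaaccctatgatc

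The last sequence shows an alternating stretch of C and A that recurs among the probes that fell most. A_21_P0004536 had no match in the windows. Placed A_21_P probes with the nearest lower and higher numbers lay on chromosomes 5 and 7. The capitals mark the letters CACACACA.
A_21_P0004536: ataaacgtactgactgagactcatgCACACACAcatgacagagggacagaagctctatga

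Fewer of the long noncoding probes than of the other catalogue probes gave a signal well above background, a flag that Feature Extraction sets for each spot. On the NC array 4172 of the 8499 probes (49.1%) had it and on the siFOXA1 array 4055 (47.7%), against 73.3% and 72.9% of the other catalogue probes. Over all probes of the array the shares were 50.8% and 49.7%, close to those of the long noncoding probes. The share differed between the prefixes. It was 73.4% on NC and 71.0% on siFOXA1 for A_19_P, 48.7% and 47.4% for A_21_P, and 48.2% and 46.7% for A_22_P. A_19_P therefore stood at the level of the other catalogue probes, and A_21_P and A_22_P stood well under it. Across both arrays, 3880 long noncoding probes were well above background on both, 292 on NC alone, 175 on siFOXA1 alone and 4152 (48.9%) on neither. Of all probes, 47.3% were well above background on neither. For those 4152 the arrays give no level.

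The median processed signal of the long noncoding probes was 9.86 on NC and 8.71 on siFOXA1, close to the lowest signal flagged as well above background among all probes, which was 9.73 and 9.42. The medians of the other catalogue probes were 68.9 and 60.9. By prefix the NC medians were 47.1 for A_19_P, 9.67 for A_21_P and 9.17 for A_22_P. Among probes well above background on NC the order was the same, with medians of 120.4, 65.8 and 47.5. Each prefix held some bright probes. A signal above 1000 on NC was found for 31 A_19_P probes (15.0%), 211 A_21_P probes (4.29%) and 125 A_22_P probes (3.70%). The share was 11.2% for the other catalogue probes and 5.58% for all probes, so that bright probes were rarer in A_21_P and A_22_P. Probes of unlike sequence bind their targets unequally, so these are levels of probes and not amounts of RNA.

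Base composition went with detection. Among long noncoding probes with under 40% GC, 32.6% were well above background on NC. From 40 to under 50% GC the share was 51.8%, from 50 to under 60% it was 81.4%, and at 60% and over it was 87.0%. The other catalogue probes ran in the same order, with 61.8%, 74.8%, 87.0% and 95.3%. The step between the 2 kinds of probe was thus widest at low GC and much narrower from 50% GC. Giving the other catalogue probes the GC classes of the long noncoding probes left detection at 72.0% on NC and 71.6% on siFOXA1. The GC content itself had the same median of 43.3% in both kinds. The dinucleotide CG was rarer in the long noncoding probes, at 0.273 times the frequency given by their bases, against 0.340 times in the other catalogue probes.

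Within A_21_P the detection also went with the probe number. Of the 422 probes numbered below 1000, 67.3% were well above background on NC. Of the 2254 numbered from 1000 to under 10000 the share was 38.6%, and of the 2241 numbered 10000 and over it was 55.4%. Their median signals on NC were 56.0, 4.86 and 14.6. In the middle range 19 probes were placed at a single position, which leaves out A_21_P0005540 with its 2 places on chromosome 7, and they ran in the order of the chromosomes without exception. Within A_22_P, the ranges below 10000, from 10000 to under 20000 and from 20000 gave 47.4%, 49.4% and 47.5%, with no step of that kind. These ranges were set after the values were seen.

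The brightest long noncoding probes differed little between the arrays. A_22_P00024803, with 85.0% GC, read 432454 on NC and 415495 on siFOXA1, a log2 ratio of 0.15 after each array was scaled by its 75th percentile. A_22_P00002736 read 432411 and 438394, with a log2 ratio of 0.23. The 2 brightest A_21_P probes, A_21_P0000106 and A_21_P0013877, had log2 ratios of 0.11 and 0.20, and the 2 brightest A_19_P probes, A_19_P00802027 and A_19_P00802413, had 0.03 and 0.00. The 6 log2 ratios all lay within 1.4-fold, the size at which the study calls a change. No long noncoding probe was saturated on either array.

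After scaling, equal numbers of long noncoding probes were lower and higher in siFOXA1. Of the 4346 probes with a ratio that were well above background on either array, 493 (11.3%) were lower by 1.4-fold and 493 (11.3%) were higher. Over all 72960 probes of the array under the same filter, 12.0% were lower and 11.7% were higher, so that the long noncoding probes were called about as often as the array as a whole. Of the calls, 194 lower and 152 higher ones were of probes above background on 1 array alone, which passed the filter only through the array where they were high and of whose fold only a bound is known. By prefix 16 A_19_P probes were lower and 15 higher of 152, 279 A_21_P probes were lower and 298 higher of 2493, and 198 A_22_P probes were lower and 180 higher of 1701. The equal split belongs to the percentile scaling. Without scaling 922 were lower and 307 higher, and with the arrays set level on 7 spike-in probes (E1A), an alternative chosen after seeing the data, 3304 were lower and 119 higher. The 7 spike-in probes differed among themselves, with log2 differences from -0.31 to 0.67 around a median of 0.51, so that this scale is poorly fixed. Over all probes that both arrays measured well above background, the median log2 ratio was -0.01 after percentile scaling, -0.22 without scaling and -0.73 on the spike-in scale. After percentile scaling the median of the long noncoding probes lay 0.02 above that of all probes, a difference that these 3 scalings cannot change, since each shifts every probe by a constant.

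The 3880 long noncoding probes that both arrays measured well above background had a median log2 ratio of 0.00, with quartiles of -0.19 and 0.20, and 83.5% stayed within 1.4-fold. Here 299 (7.71%) were lower and 341 (8.79%) higher, against 9.15% and 9.38% of all 66169 such probes. At 2-fold 38 of these 3880 were lower and 86 higher, against 900 (1.36%) and 1511 (2.28%) of all 66169. The share higher was near that of all probes, and the share lower was smaller. The prefixes were unlike in the balance of the 2 directions. In A_19_P 0 of 147 probes were lower by 2-fold and 7 higher, and in A_21_P 20 and 66 of 2233. In A_22_P they were 18 and 13 of 1500. Among A_21_P probes numbered 10000 and over, 12 of 1165 were lower and 47 higher by 2-fold. In the middle range 6 of 795 were lower and 12 higher, and below 1000 they were 2 and 7 of 273. The difference between prefixes has no replicate check.

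At matched signal the ratios of the long noncoding probes were narrower than those of the other catalogue probes. In 20 bins of the mean log2 signal of both arrays, with the other catalogue probes weighted to the signals of the long noncoding probes, 22.7% of the long noncoding probes were past 1.4-fold in either direction against 31.1% of the other catalogue probes, a difference of -8.45 percentage points. The interquartile range of the log2 ratio was 0.53 against 0.66. It was narrower for the long noncoding probes in 20 of 20 bins, and the share past 1.4-fold was smaller in 19 of 20. Without matching the shares were 22.7% and 26.4%, so that matching widened the gap.

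The gap was seen in each prefix and against each of the other 4 prefixes. Past 1.4-fold were 20.4% of A_19_P probes against 26.6% at matched signal (in 5 bins), 23.1% of A_21_P probes against 30.6%, and 22.2% of A_22_P probes against 32.1%. Matched to the signals of all long noncoding probes, the share was 34.4% for A_23_P, 33.3% for A_24_P, 29.5% for A_32_P and 27.8% for A_33_P. By this share A_33_P was the closest to the long noncoding probes and A_23_P the farthest. By the interquartile range A_32_P (0.591) and A_33_P (0.598) were the closer and A_23_P (0.721) and A_24_P (0.724) the farther, each pair with nearly the same value. The medians of the 2 kinds lay close together, with a difference of -0.0039 on the log2 scale.

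Spot noise sets a floor under these widths, and it was estimated from 3000 catalogue probes printed 10 times on each array. In the brightest bin, with signals of 2033 and over, the interquartile range was 0.25 for long noncoding probes and 0.37 for the other catalogue probes, and the SD that spot noise alone gives a difference between the arrays was 0.09. The corresponding robust SDs of the ratios were 0.18 and 0.28. In the dimmest bin spot noise gave an SD of 0.60. Its mean signals of up to 9.63 lie at the limit of detection, where a probe enters mostly through the array on which it is high, so that wide ratios there are favoured by the filter. With both arrays above background, 16.5% of long noncoding probes were past 1.4-fold against 25.1% of the other catalogue probes at matched signal, a gap of about the same size. The gap was also present in the probes of the same prefixes that were printed 10 times, which are not among the 8499. Of 409 such long noncoding probes 13.7% were past 1.4-fold, against 23.9% of 1684 other catalogue probes at matched signal.

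Among the 23 long noncoding probes well above background on both arrays that held CACACACA, 14 were lower by 1.4-fold and 2 higher, with a median log2 ratio of -0.84. Among the 14 that held the reverse complement TGTGTGTG, 0 were lower and 9 higher, with a median of 0.84. The 2 stretches were looked for in the sequence as printed on the array, and 59 of the 8499 probes held at least 1 of them. The other catalogue probes went the same way, with 28 lower and 4 higher of 51 for CACACACA and 9 lower and 40 higher of 92 for TGTGTGTG. Long noncoding probes with such a stretch supplied 10 of the 38 that were lower by 2-fold and 4 of the 86 that were higher. Without them 285 were lower and 330 higher by 1.4-fold of 3843 well above background on both arrays.

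The probes that fell most were led by these stretches. A_22_P00010181, which held CACACACA, read 1046 on NC and 113.3 on siFOXA1, a log2 ratio of -3.00. A_21_P0004536, whose sequence is printed above, went from 2833 to 374.2 (log2 ratio -2.71), and A_21_P0014294 went from 4187 to 484.5 (-2.90). A_22_P00017019 and A_21_P0010307, also with CACACACA, were among the brightest that fell, from 15064 to 2473 (-2.40) and from 14014 to 1952 (-2.64). A_21_P0010155, which shares 39 consecutive bases with A_21_P0010307, went from 48531 to 9056 (-2.22). These 2 log2 ratios differed by 0.42.

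Some of the probes that fell most had no CACACACA. A_21_P0010966 went from 3800 to 417.2, a log2 ratio of -2.98, and its longest alternating stretch of C and A was 6 bases. A_22_P00022174 went from 387.6 to 58.5 (-2.52) and A_22_P00020985 from 52.4 to 12.5 (-1.86). In A_19_P the lowest ratio was that of A_19_P00808208, named after its value was seen, which went from 42.4 to 18.9 (-0.96) but came to -0.27 under normexp background correction. Normexp added an offset of 50 to each signal, which shrinks ratios at low signals. A_19_P00321014 went from 310.5 to 170.3 (-0.66) and A_19_P00804020 from 1636 to 969.7 (-0.55), and these were the 2 A_19_P probes that passed 1.4-fold downward under percentile scaling, normexp background correction and quantile normalization alike.

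The probes that rose most were of A_21_P and A_22_P. A_21_P0000025 read 104.6 on NC and 875.2 on siFOXA1, a log2 ratio of 3.27 and the largest of all long noncoding probes above background on both arrays. A_22_P00019819 went from 27.1 to 208.1 (3.15), and A_21_P0013727 from 36.8 to 218.6 (2.78). None of these held an alternating stretch of 8 bases. A_22_P00014382, which held TGTGTGTG, went from 222.5 to 525.2 (1.45). In A_19_P, A_19_P00320996 went from 73.5 to 213.0 (1.74), A_19_P00802154 from 43.7 to 119.0 (1.65) and A_19_P00801088 from 369.1 to 705.5 (1.14). Over the 3 settings named above, 64 long noncoding probes (1.65%) were lower and 98 (2.53%) higher in all of them, of the 3880 above background on both arrays. Over all unflagged probes above background on both arrays the shares were 3.12% and 3.29%. These shares were not matched for signal, and normexp shrinks the ratios of dim probes. Among probes well above background on NC, the median signal was 59.8 for long noncoding probes and 83.2 for all probes.

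A run of neighbouring probe numbers rose together. A_21_P0013571 went from 75.3 to 342.4 (log2 ratio 2.39), A_21_P0013574 from 719.5 to 1932 (1.63) and A_21_P0013575 from 61.4 to 269.9 (2.34). A_21_P0013572 read 9.68 on NC, where it was not well above background, and 35.7 on siFOXA1. A custom probe that shares 44 bases with it went from 22.0 to 46.5 (1.29). A_21_P0013573, which lies between them by number, read 7403 and 6909 and had a log2 ratio of 0.11. The other 6 probes well above background on both arrays with numbers from 13565 to 13578 had log2 ratios from -0.35 to 0.01. The rise was thus carried by 4 of the 13 probes present in that range, which was chosen after its values were seen. They shared no stretch of 20 bases with each other, and their place in the genome was not matched.

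Probes well above background on 1 array alone have only a bound for their fold. Of 292 on NC alone, 80 (27.4%) were at least 1.4-fold lower and 15 (5.14%) at least 2-fold lower, and for 37 no fold could be given. Over all probes on NC alone the shares were 26.9% and 5.44%. Of 174 on siFOXA1 alone with a ratio, 104 (59.8%) were at least 1.4-fold higher and 27 (15.5%) at least 2-fold, against 58.9% and 19.2% of all probes on siFOXA1 alone. The shares at 1.4-fold were thus near those of the array. The largest bounds were at least 6.68-fold lower for A_21_P0013010, which read 72.5 on NC and 3.68 on siFOXA1, and at least 6.29-fold higher for A_21_P0004375, which read 2.04 on NC and 53.1 on siFOXA1. Most of the bounds were small, with a median under 1.4-fold for the lower probes that had one and of 1.46-fold for the higher.

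The 90 placed probes were detected somewhat more often than the long noncoding probes as a whole. The flag was set for 57.8% of them on NC and for 54.4% on siFOXA1, and their median GC content was 50%. By prefix this held for A_22_P, at 64.4% on NC against 48.2% of all A_22_P probes. It did not hold for A_21_P, at 48.8% against 48.7% on NC and 44.2% against 47.4% on siFOXA1. The 2 placed A_19_P probes both had the flag. Of 47 probes on the strand opposite to a gene, 63.8% were well above background on NC, and of 45 on the strand of the gene 51.1% were. The median GC content was 55% in the former and 45% in the latter. A_19_P00316050 and A_22_P00009844 counted in both groups. Of the 53 placed probes well above background on either array, 7 were lower by 1.4-fold, a share near the 12.0% of all probes, and 0 were higher against 11.7%.

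Most of the bright placed probes had nearly equal levels on both arrays. A_22_P00007897 in the HSP90AA1 window read 123289 on NC and 106910 on siFOXA1 (log2 ratio 0.00). A_22_P00002540 opposite to NARF read 79914 and 79132 (0.19), and A_22_P00003109 in the direction of UBQLN1-AS1 read 34097 and 31819 (0.11). A_22_P00025801, opposite to LOC124902315, read 285739 and 263708 (0.09). These 4 had more than 50% GC. A_21_P0000561, opposite to PCNA, which encodes the DNA polymerase clamp, went from 416.5 to 277.5 (-0.38), within 1.4-fold.

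The 7 placed probes past 1.4-fold were as follows. A_21_P0000509 opposite to CGB2 went from 19627 to 11693, a log2 ratio of -0.54, and A_21_P0000491 opposite to CGB1 went from 540.0 to 330.7 (-0.50). A_21_P0000508, which is not among the 7, shares 20 bases with A_21_P0000509. It went from 38832 to 25458 (-0.40), within 1.4-fold. The 3 probes thus moved in 1 direction by similar amounts, but the 2 that share bases are not separate readings. A_21_P0000509 came to -0.39, within 1.4-fold, under quantile normalization. A_19_P00322687 in the ERVMER34-1 window went from 122.2 to 74.7 (-0.50), and A_21_P0007368 opposite to DEFB131B, a gene of the beta-defensin family, went from 21.2 to 12.2 (-0.59). Under normexp background correction these 2 came to -0.31 and -0.03, within 1.4-fold. The other 3, in the windows of C22orf39, LINC01638 and RPS26, were above background on NC alone and have only a bound, with NC signals of 21.9, 18.7 and 17.4 and siFOXA1 signals of 8.77, 10.2 and 10.2. Under normexp all 3 came within 1.4-fold, and the sign turned for RPS26 (0.03). The offset of 50 in normexp shrinks ratios at signals this low. Coming within 1.4-fold there is thus no separate check on these calls.

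Probes at or just before the start of named noncoding RNAs were mostly within 1.4-fold. A_22_P00010857 in the MIR4522 hairpin went from 38.1 to 23.8, a log2 ratio of -0.47, just inside the threshold. A_21_P0000349 in the MIR1843 hairpin read 155.4 and 142.1 (0.08). A_21_P0012700 before the start of F11-AS1 read 37.9 and 29.9 (-0.14), and A_19_P00316050 at the start of LINC00513 read 41.9 and 46.4 (0.35). A_21_P0012379 across the start of LINC00960 read 5316 and 4692 (0.03), and A_22_P00005653 across the start of CLSPN-AS1 went from 151.4 to 99.9 (-0.39). A probe of 60 bases in a hairpin reads any transcript that contains it and is no measure of the mature miRNA.

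Probes that shared sequence mostly gave ratios close to each other, with exceptions. There were 558 pairs of a long noncoding probe with another probe, the custom probes named CUST_H6C left out, that shared at least 20 consecutive bases on the same strand, and in 268 both were well above background on both arrays. Their log2 ratios differed by a median of 0.11. Across these pairs, which share sequence and the same 2 arrays, Pearson's r was 0.77 and Spearman's rho 0.67. Between 2 long noncoding probes there were 101 pairs, with a median difference of 0.18 over the 36 that were above background, an r of 0.84 that was 0.57 without the alternating stretches, and a rho of 0.51. In 67 pairs the shared stretch lay on opposite strands, and the log2 ratios of the 51 above background differed by a median of 0.27, with an r of 0.11 and a rho of 0.29. Without the pairs that hold an alternating stretch, r was 0.66 and rho 0.53 over 48 pairs, so that the low r rests on 3 pairs. No pairs of unrelated probes were set beside these. A_21_P0000358 and A_21_P0000359, which share 21 bases, had log2 ratios of 0.01 and 0.01 at NC signals of 5179 and 5742. In other pairs the ratios parted, and 2 of them are named here after their values were seen. A_21_P0004496 and A_21_P0004499, with 31 shared bases and NC signals of 13.2 and 27.2, had 0.12 and -1.02, and A_21_P0011392 and A_33_P3270034, with 21 shared bases and NC signals of 1132 and 4885, had 0.40 and -0.73.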

How the data were processed

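Total RNA of HepG2 cells was labelled with Cy3 and hybridised to 2 arrays of 1 slide, NC and siFOXA1, whose conditions come from the labels. For every spot the authors deposited an intensity corrected for background by Feature Extraction 10.7.1.1 (per the submitters' processing notes), with its mean signal, local background and flags, and a matrix of log2 values per probe, used as an alternative only. The processed signal was put on the log2 scale with no pseudocount and scaled by subtracting each array's 75th percentile over all spots that were not controls. Those were 175899 spots per array, with 75th percentiles of 105.8 on NC and 91.7 on siFOXA1, and 53.4% and 52.4% of them were well above background. Outlier-flagged spots (1479 of NC, 1416 of siFOXA1) were dropped, so that 3 long noncoding probes, all A_21_P, have no ratio.

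Ratios are siFOXA1 over NC. A probe was called where the ratio passed 1.4-fold, among probes that either array measured well above background, and for probes above background on 1 array alone a bound was taken against the higher of the probe's own signal and the lowest signal well above background on the other array. Matching used 20 bins with equal numbers of long noncoding probes. Spot noise was the SD over 10 spots. Intensities have no read depth, and the number of arrays limits the precision. The probes named were, for each prefix, the 2 brightest and up to 4 per direction with the largest ratio among those past 1.4-fold under percentile scaling, normexp (offset 50) and quantile normalization, the 3 largest bounds per direction and the 3 brightest pairs that share 20 bases. The placed probes and the run of neighbouring numbers were chosen after their values were seen. Probe sequences were matched exactly to RefSeq promoter windows and miRNA hairpins of GRCh38.p14. The probes, features and alternatives were chosen with earlier results of these data known. Alternatives were other scalings and background corrections, filters, thresholds and matchings. Scripts were tested on simulated data. The tools were R 4.3.3 with limma 3.58.1, and scipy 1.17.1, pandas 2.3.3 and numpy 2.4.6 under Python 3.11.15.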

Additional observations from a re-analysis of the deposited data

How the results depend on the processing

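With 1 array per condition, what could change the results was the scaling, the background correction, the filter on dim probes and the threshold. Of 493 lower and 493 higher long noncoding probes, normexp background correction left 76 and 109, no filter on dim probes gave 979 and 1133, no scaling gave 922 and 307, a threshold of 1.2-fold gave 975 and 907, and 2-fold gave 129 and 164. Requiring both arrays above background gave 299 lower. Spike-in scaling, chosen after seeing the data, gave 3304 and 119. The other 7 alternatives for these counts stayed within 1.5 times, among them leaving out the alternating stretches, also chosen after seeing the data, with 475 and 481. Under a limit set from the negative control spots (the median plus 3 robust SDs), more probes were detected on NC and siFOXA1, 85.0% and 81.6% of A_19_P, 67.8% and 67.5% of A_21_P and 69.2% and 67.7% of A_22_P. The other catalogue probes were not recounted under this limit, so their gap to the long noncoding probes is not known there. The median log2 ratio of probes above background on both arrays was 0.027 under cyclic loess, 0.028 under normexp, -0.21 without scaling and -0.71 with spike-in scaling.

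At matched signal the share past 1.4-fold stayed smaller in long noncoding probes under all 10 alternatives tried for it. The difference in points was smaller where fewer probes of either kind passed, under normexp with 4.26% against 8.89% (-4.63 points, with a difference of -0.068 between the interquartile ranges) and at 2-fold with 6.74% against 10.4% (-3.67 points). The difference between medians was 0.023 when matched on siFOXA1 alone, -0.042 with 40 bins, 0.011 with both arrays above background and -0.027 in probes printed 10 times, chosen after seeing the data. Of 106 single probes recomputed under 4 alternatives, which include the placed probes above background on either array, A_21_P0000509 came within 1.4-fold under quantile normalization (-0.39) and in the authors' matrix (-0.40), and 9 others did under normexp, A_22_P00003488 (-0.46) among them. Of these 9, A_22_P00012073 opposite to RPS26 turned its sign (0.035). A_22_P00010857 came just past 1.4-fold in the authors' matrix (-0.49). The offset of 50 that normexp adds shrinks ratios at low signals by construction. How much of the normexp shifts it gave was not tested, nor was the cause of the other shifts. No paired analysis was possible because NC and siFOXA1 are single arrays. Both arrays were well above background for 640 of the 986 calls, and 48.9% of the long noncoding probes were well above it on neither array and could not be called.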
